A study of Mus musculus with 8 samples.

Results

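The enzymes described here write and erase acetyl and methyl groups on the lysines and arginines of histones. They were taken from the deposited tables by gene symbol: every Kdm, Kat, Setd, Ehmt, Suv, Prmt, Hdac or Sirt gene that the symbol rule matched, with Kdm5d left out. That gave 66 members among 21202 named genes, of which 63 were in the exon table, 65 in the intron table and 62 in both. Mouse embryonic stem cells (ESC) of the hybrid line F1-21.6, on a 129Sv-Cast/EiJ background, were compared with 1 clone of neural progenitor cells (NPC) differentiated from that line. The ESC had been grown on inactivated embryonic fibroblast feeders with serum and leukaemia inhibitory factor. Each cell type had 2 biological replicates of 2 technical libraries each, made from total RNA without ribosomal RNA. All NPC values come from a single clone, so the spread between its replicates does not cover differences between clones.

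Lysine acetyltransferases (Kat) add acetyl groups, which loosen chromatin and recruit bromodomain proteins, and histone deacetylases (Hdac) and the NAD-dependent sirtuins (Sirt) remove them. SET domain enzymes (Setd, Ehmt, Suv) methylate lysines, Prmt enzymes methylate arginines, and lysine demethylases (Kdm) reverse lysine methylation with flavin or with iron and oxoglutarate. ESC keep an open chromatin, and several of these enzymes are known to be needed for self-renewal or for the exit towards the neural lineage. Some members carry a histone enzyme's name but act mainly on other proteins: Hdac6 on tubulin, Setd3 on actin, and Sirt3, Sirt4 and Sirt5 on proteins of the mitochondria.

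The upstream flanks of 6 members that changed most, or in opposite directions between paralogs, are given first, so that the genes can be found. They come from the RefSeq promoter table of build GRCm38.p6, 5′ to 3′ on the strand of the gene. Each covers up to 250 bases before the first listed start, cut where GENCODE M21 annotates a UTR. Capitals mark motifs on either strand, with overlapping matches joined. The motif letters were GGGCGG for the GC box, which Sp factors are known to bind, and CCAAT for the box of that name, which the NF-Y factor binds. The E-box known from Myc was searched as CACGTG, and the site of the large ETS family was searched as CCGGAAG. The cyclic AMP response element, CRE, was searched as TGACGTCA in full. Setd7 (chr3:51560880-51561073, minus strand) and Hdac11 (chr6:91156565-91156664, plus strand) had the largest exon increases of all members. Setd6 (chr8:95715663-95715880, plus strand) and Sirt1 (chr10:63339051-63339285, minus strand) had the largest exon decreases. Suv39h1 (chrX:8074761-8075010, minus strand) and Suv39h2 (chr2:3475032-3475236, minus strand) are paralogs of which the first rose and the second fell.
Setd7: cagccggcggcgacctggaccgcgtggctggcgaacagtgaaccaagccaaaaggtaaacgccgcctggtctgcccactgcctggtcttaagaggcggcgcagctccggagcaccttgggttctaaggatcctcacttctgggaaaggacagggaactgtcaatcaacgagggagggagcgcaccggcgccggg
Hdac11: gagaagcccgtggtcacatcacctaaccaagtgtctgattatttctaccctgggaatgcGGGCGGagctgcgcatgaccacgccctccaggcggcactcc
Setd6: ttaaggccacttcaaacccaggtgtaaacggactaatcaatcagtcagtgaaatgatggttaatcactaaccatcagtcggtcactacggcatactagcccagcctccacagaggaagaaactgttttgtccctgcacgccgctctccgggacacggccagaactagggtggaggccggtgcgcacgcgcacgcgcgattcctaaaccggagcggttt
Sirt1: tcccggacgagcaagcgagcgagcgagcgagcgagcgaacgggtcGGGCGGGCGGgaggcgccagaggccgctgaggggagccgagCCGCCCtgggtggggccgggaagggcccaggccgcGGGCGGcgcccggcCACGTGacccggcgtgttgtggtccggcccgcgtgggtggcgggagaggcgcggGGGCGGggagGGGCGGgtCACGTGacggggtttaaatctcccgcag
Suv39h1: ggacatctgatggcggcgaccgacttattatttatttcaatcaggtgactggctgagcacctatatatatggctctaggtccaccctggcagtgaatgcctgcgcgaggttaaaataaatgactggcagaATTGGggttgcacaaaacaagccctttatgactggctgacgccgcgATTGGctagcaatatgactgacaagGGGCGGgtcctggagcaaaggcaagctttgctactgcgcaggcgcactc
Suv39h2: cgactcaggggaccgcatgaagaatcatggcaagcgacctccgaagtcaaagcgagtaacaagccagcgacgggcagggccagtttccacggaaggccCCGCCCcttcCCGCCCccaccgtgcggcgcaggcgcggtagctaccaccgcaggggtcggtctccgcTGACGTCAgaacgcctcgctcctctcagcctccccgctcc

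The Sirt1 flank holds 36 CpG dinucleotides in 235 bases and is 78.3% G and C, while that of Suv39h1 holds 11 in 250 and is 51.6% G and C. Over the full 250 bases, 57 members were found in the promoter table. Their median was 14 CpG, against 6 for all 27025 genes, and a GC box stood in 57.9% of them against 32.9%. A CCAAT box was found in 49.1% of the members' windows and 34.5% of all, the E-box in 10.5% and 6.05%, the ETS site in 15.8% and 7.05%, the CRE in 3.51% and 1.62%, and an NRF1 site, searched as well, in 1.75% and 0.781%. Members higher in NPC, lower in NPC and not called had nearly the same median number of CpG (13.5 in 10 windows, 14 in 24 and 14.5 in 18). The shares of all genes cover every gene of the promoter table, expressed or not, and a comparison with expressed genes alone was not made. A match describes letters only and names no bound factor.

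Whole-series checks were as follows. All 6 ESC markers tested fell and all 6 NPC markers in the exon table rose, with Pou5f1 at 1327 RPKM in ESC and 2.94 in NPC and Olig2 at 0.686 and 448. The 14 feeder fibroblast markers summed to 208 RPKM in ESC and 43.3 in NPC, with 8 of 13 tested lower and 1 higher; the lowest in ESC was Fap at 0.0823 RPKM. The 7 neuron markers summed to 274 and 65.2 RPKM, with 2 of 5 tested higher and 3 lower. The part of either list in the members' values was not tested. In bulk RNA, fewer cells that use a gene and less RNA per cell cannot be told apart. The intron values were scaled to column denominators of 5186790 (NPC replicate 2) to 6500767 (ESC replicate 2), recovered from the deposited values. The intron reads recovered in these 2 columns were more, 5531660 and 6958897, so the denominators cannot be read as library totals. A member's introns held a median of 286.5 (NPC replicate 1) to 488.5 reads (ESC replicate 2). NPC replicate 1 stood apart: olfactory, vomeronasal and taste receptor genes, which neither cell type is known to use, had a median intron level of 0.748 RPKM there, against 0.0829 in NPC replicate 2, 0.0295 in ESC replicate 1 and 0 in ESC replicate 2. On exons the median over 1466 such genes was 0 RPKM for ESC and 0.279 for NPC, so low NPC levels lie close to the level of genes not in use.

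Most of these enzymes were expressed in both cell types, and more of them fell than rose on the way from ESC to NPC. Exon levels below are RPKM (reads scaled to feature length and library size), pooled per cell type by the authors and given as ESC then NPC, without a replicate spread. Over 10273 genes above 1 RPKM in both, the log2 ratio of NPC over ESC RPKM lay a median of 0.14 above the deposited log2 fold change. Levels and sums in RPKM are thus not on quite the same scale as the fold changes. By the adjusted p in the authors' deposited table (threshold 0.05, mean of at least 1 RPKM), 13 of 61 members rose and 26 fell. Together 63.9% of the members were called, against 66.2% of all 12509 genes tested, so the share of changed members was near that of all genes. The members' share was 21.3% higher and 42.6% lower, beside 32.3% and 33.9% of all genes. Their median log2 fold change in the authors' deposited table was -0.28, and that of all tested genes -0.07. In the authors' deposited table, 11 of the higher and 19 of the lower members moved 2-fold or more (49.2% of members, beside 54.1% of all genes). When a mean of 10 RPKM was required, 49 members were left, of which 8 were higher and 23 lower in the authors' deposited table. The share of all genes called at that filter is not given. Prmt8 and Kdm4d lay below a mean of 1 RPKM and were left out of these counts.

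**Figure D1:**
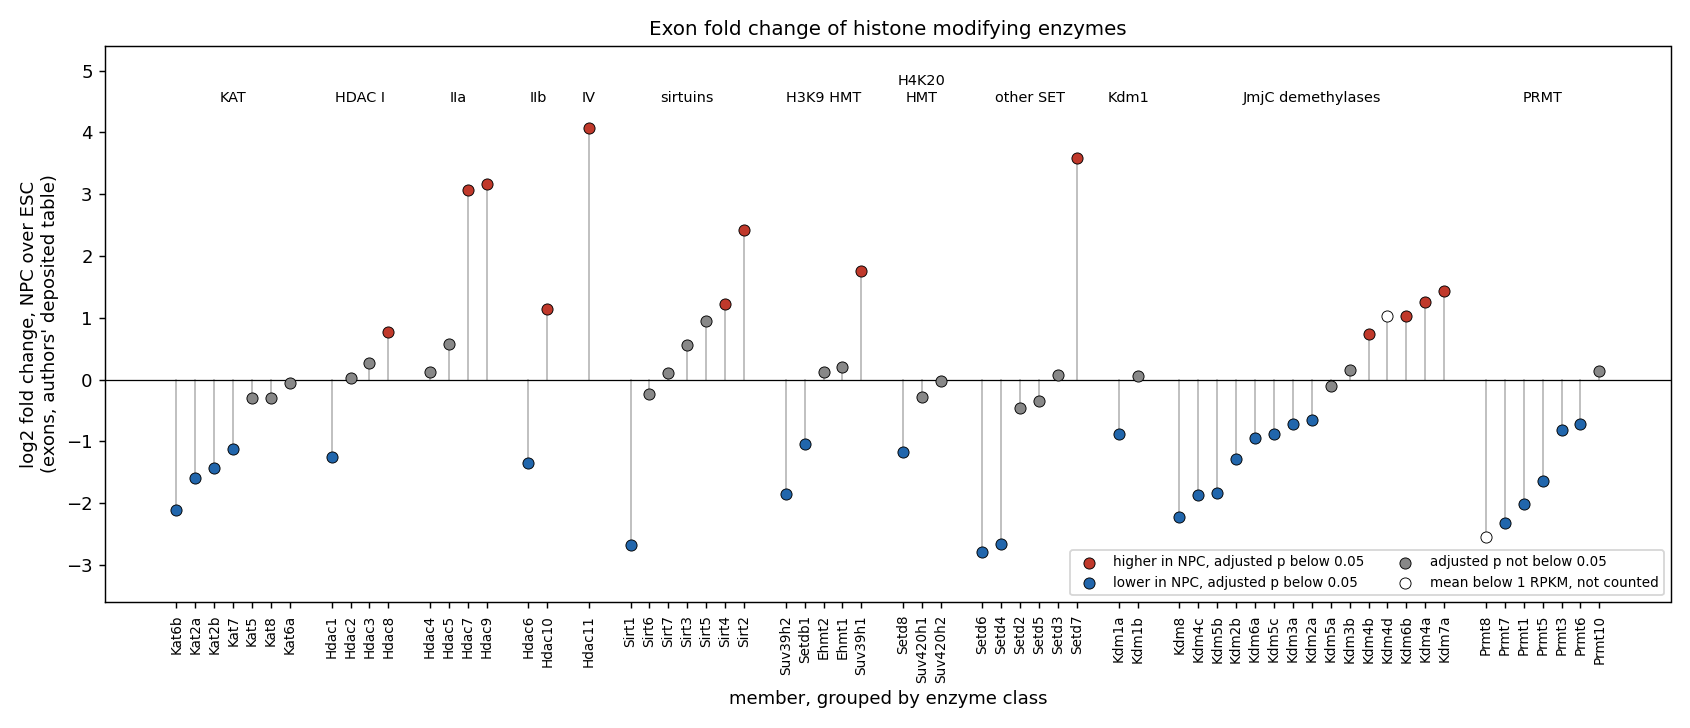
Exon log2 fold change (vertical axis, NPC over ESC) of each of the 63 members in the authors' deposited table, grouped by enzyme class along the horizontal axis (KAT, acetyltransferases; HMT, lysine methyltransferases; PRMT, arginine methyltransferases). Points are coloured by the authors' adjusted p; no acetyltransferase and no arginine methyltransferase rose, and the largest increases were those of Hdac11 (4.07) and Setd7 (3.59).

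Introns mark unspliced transcripts and gave 1 value per biological replicate. Differences are on the log2(RPKM + 1) scale, NPC minus ESC, tested with limma over the 8811 genes averaging 1 RPKM or more, and are given with their standard error (SE) and Benjamini-Hochberg adjusted p. Of 58 members tested, 6 rose (Hdac11, Setd7, Sirt2, Kdm6b, Kdm7a, Kdm4a) and 17 fell. That is 39.7% of the members, beside 47.3% of all genes (13.2% higher, 34.0% lower). The columns were taken as deposited, and the median difference over all tested genes was -0.43, that of the members -0.36, so a fall of this size is shared by the typical gene. With the columns scaled to a common median, the median over all genes was -0.04, and 14 members were higher and 12 lower (24.8% and 24.6% of all genes, 49.4% in either direction). Replicate 2 exceeded replicate 1 in NPC in 53 of 58 members, and in ESC in 40. Over all 8811 genes tested, the median of replicate 2 minus replicate 1 was 0.42 in NPC and 0.01 in ESC. The shift between the NPC replicates is thus not particular to the members. Both NPC replicates lay above both ESC replicates in 8 members and below in 28, beside 21.9% and 55.5% of all genes tested. All 21 members that passed on both exons and introns had moved the same way in both (the same libraries gave both tables). The share of all genes that did so is not given, so this count is not a result about the members. Of the 17 falls, those of Kat2b, Kat8, Kdm4c, Setd4, Setdb2 and Suv39h2 were not called with the columns scaled. With the receptor genes' median subtracted from each column, the rises of Hdac11, Setd7 and Sirt2 and 9 falls were called, while Hdac6, Kat2b, Kat6b, Kat8, Kdm4c, Prmt1, Setdb2 and Suv39h2 were not. Without the filter on the mean the calls were Hdac11, Prmt5 and Setd6. Hdac11, Setd7 and Kdm7a averaged under 1 RPKM in ESC, and Setd4 and Kdm2b in NPC, so these reached the filter only through the other cell type. Without the variance trend, Kdm4a, Kdm6b, Kat2b, Kat8 and Setdb2 were not called and Kdm5b was. Without ESC replicate 1 the calls were Hdac11, Setd7, Prmt7 and Setd8. Without ESC replicate 2 they were Hdac11, Setd7, Prmt7, Kdm2b and Setd4.

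**Figure D2:**
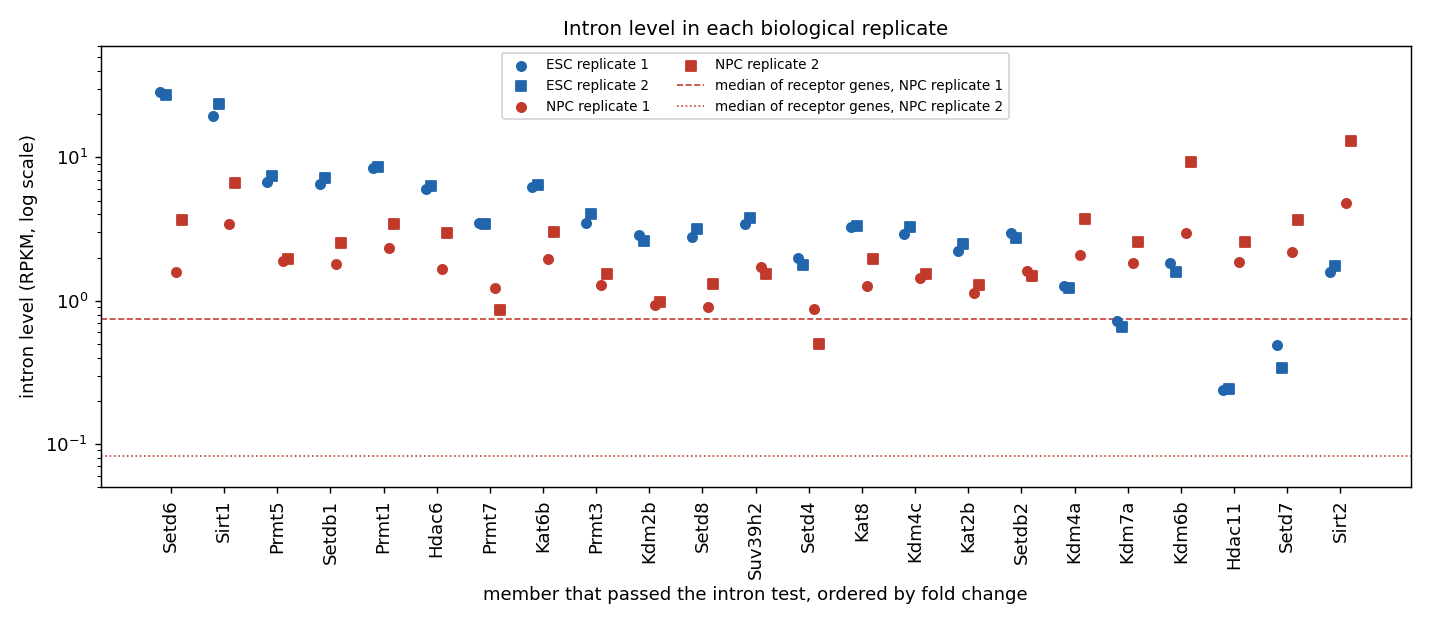
Intron level (RPKM, log scale) of the 23 members that passed the intron test, with circles for biological replicate 1 and squares for replicate 2, ESC in blue and NPC in red. The dashed and dotted lines are the medians of receptor genes in NPC replicates 1 (0.748) and 2 (0.0829). The ESC and NPC points of the 23 members do not overlap, which their choice by the test largely fixes. The NPC replicate 1 points of Setd4, Kdm2b, Setd8, Kat2b, Prmt7, Kat8 and Prmt3 (0.867, 0.935, 0.908, 1.12, 1.23, 1.27 and 1.28) lie a little above the dashed line. Their NPC replicate 2 points (0.495, 0.973, 1.30, 1.29, 0.863, 1.97 and 1.55) lie above the dotted line.

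Among the lysine methyltransferases, Setd7, an enzyme that puts a single methyl group on histone H3 and on several other proteins, rose most. Its exons were at 6.57 and 87.5 RPKM, a log2 fold change of 3.59 with adjusted p = 3.62e-56 in the authors' deposited table. Its introns were at 0.491 and 0.339 RPKM in the ESC replicates and at 2.18 and 3.63 in the NPC replicates. The groups do not overlap, and the limma difference was 1.44 (SE 0.211, adjusted p = 0.000259). Setd7 reached the mean of 1 RPKM needed for the test only through NPC, and without that filter it was not called (limma adjusted p = 0.0589). The gene (start at chromosome 3, position 51364745, build mm9, minus strand) overlaps one on the plus strand, and how strand entered the counting was not given in the sources used here, so reads of the pair cannot be told apart.

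Setd6, which methylates a subunit of NF-kappaB, and Setd4 moved the other way. Setd6 exons fell from 101.5 to 16.2 RPKM (log2 fold change -2.79, adjusted p = 3.64e-28 in the authors' deposited table). Setd6 introns, only 1423 bases long in all, were at 28.4 and 27.3 RPKM in ESC and at 1.58 and 3.66 in NPC, or 233 and 253 reads against 13 and 27. The limma difference of -3.06 (SE 0.569, adjusted p = 0.00123) was the largest of any member. Setd4 was at 7.03 and 1.21 RPKM on exons. Its introns, at 1.97 and 1.79 RPKM in ESC and 0.867 and 0.495 in NPC, fell by 0.78 (SE 0.187, limma adjusted p = 0.00526), but NPC replicate 1 was close to the receptor genes' 0.748. Setd2, which trimethylates H3 over transcribed gene bodies, Setd5 and Setd3 were not called, with 136 and 109, 76.5 and 65.4, and 27.0 and 31.9 RPKM. Setd1a, the catalytic subunit of a COMPASS complex, was found on introns alone, with an ESC level of 6.24 ± 0.344 and an NPC level of 3.90 ± 1.45 RPKM (SD, n = 2), and did not pass (limma adjusted p = 0.224); it overlaps Hsd3b7.

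The methyltransferases of H3K9, the mark of silent heterochromatin, did not move as a block. Suv39h1 rose from 23.2 to 86.4 RPKM (log2 fold change 1.75, adjusted p = 2.93e-11 in the authors' deposited table). Its paralog Suv39h2, which shares its role at pericentric repeats, fell from 33.1 to 10.4 RPKM (-1.85, adjusted p = 6.9e-13 in the authors' deposited table). Suv39h1 thus made up 41.2% of the pair's summed RPKM in ESC and 89.3% in NPC. On introns Suv39h1 was at 5.92 and 6.39 RPKM in ESC and at 5.99 and 11.1 in NPC. One NPC replicate lay within the ESC range and the other above it, and the difference of 0.36 did not pass (SE 0.499, limma adjusted p = 0.568). It passed with the columns scaled (0.76, limma adjusted p = 0.0405). Dropping NPC replicate 1 gave a difference of 0.76, whereas dropping NPC replicate 2 gave -0.03. Each of these fits holds a single NPC value and so cannot weigh the difference against the spread between NPC replicates. Suv39h2 introns were at 3.40 and 3.75 RPKM in ESC and 1.72 and 1.53 in NPC, below ESC in both replicates (limma adjusted p = 0.0116). With the columns scaled Suv39h2 was not called (-0.41, limma adjusted p = 0.138), nor with the receptor median subtracted (0.0948). Neither the columns as deposited nor the scaled ones called both paralogs. Within each column, the intron ratio of Suv39h1 over Suv39h2 was 1.74 and 1.70 in the ESC replicates and 3.49 and 7.25 in the NPC replicates.

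Setdb1, the H3K9 enzyme that silences retroviral repeats in ESC, fell from 59.8 to 32.4 RPKM on exons. Its introns were at 6.51 and 7.14 RPKM in ESC and at 1.80 and 2.52 in NPC, with no overlap (limma difference -1.32, SE 0.322, adjusted p = 0.00603). Setdb2, measured on introns alone, was at 2.94 and 2.75 RPKM in ESC and 1.60 and 1.49 in NPC (limma adjusted p = 0.0304), and overlaps Phf11c. Ehmt1 (33.7 and 43.0 RPKM) and Ehmt2 (62.8 and 75.4), the partners of the G9a complex that dimethylates H3K9 in euchromatin, were not called on exons or introns. Their split was nearly fixed, with Ehmt2 at 65.1% of the pair in ESC and 63.7% in NPC. Of the H4K20 enzymes, Setd8, the cell cycle-regulated enzyme that adds the first methyl group, fell from 74.3 to 35.7 RPKM. Suv420h1 (43.8 and 40.2) and Suv420h2 (19.7 and 21.1), which add further ones, were not called. Setd8 introns were at 2.79 and 3.15 RPKM in ESC and 0.908 and 1.30 in NPC (limma adjusted p = 0.00311), again near the receptor level in NPC replicate 1.

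Of 6 arginine methyltransferases tested, 5 were called lower on exons and none higher in the authors' deposited table, beside 33.9% and 32.3% of all genes, with a median log2 fold change of -1.23. Their summed level was 307 RPKM in ESC and 117 in NPC. Prmt1, the main source of asymmetric dimethylarginine, fell from 88.6 to 23.9 RPKM. Prmt5, the main source of symmetric dimethylarginine and a gene that embryos need, went down from 103 to 35.5 RPKM. Prmt7, which adds a single methyl group, fell from 52.8 to 11.7 RPKM, the largest decrease of the class that was called (-2.32, adjusted p = 1.36e-22 in the authors' deposited table). Prmt3, which acts on a ribosomal protein, went from 35.6 to 21.9 and Prmt6 from 12.8 to 8.75 RPKM. Prmt10, at 11.8 and 14.8 RPKM, was not called. Prmt8, the family member of neurons, had 1.66 RPKM in ESC but 0.295 in NPC, and the NPC value is near that of receptor genes.

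On introns 4 of 5 tested arginine methyltransferases passed, all lower, beside 34.0% of all genes. Prmt5 introns were at 6.71 and 7.40 RPKM in ESC and at 1.90 and 1.97 in NPC (limma difference -1.46, SE 0.308, adjusted p = 0.00266). Prmt1 introns were at 8.50 and 8.51 RPKM in ESC and at 2.32 and 3.42 in NPC (limma adjusted p = 0.0155). Both genes thus had NPC replicates well below ESC and well above the receptor level. With the receptor median subtracted from each column, Prmt5, Prmt3 and Prmt7 were called and Prmt1 was not (limma adjusted p = 0.0638). Prmt7 introns were at 3.47 and 3.44 RPKM in ESC and 1.23 and 0.863 in NPC (limma adjusted p = 0.00101), and Prmt3 introns at 3.49 and 4.02 and at 1.28 and 1.55 (adjusted p = 0.00374). Prmt2, found on introns alone and under a mean of 1 RPKM, was at 0.329 and 0.200 RPKM in ESC and 1.31 and 1.99 in NPC, the reverse order of the others, and was not tested.

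Of 14 JmjC members tested, 4 rose and 8 fell in the authors' deposited table, beside 32.3% and 33.9% of all genes. Kdm4a, which removes methyl groups from H3K9 and H3K36, rose from 44.3 to 117 RPKM (1.26, adjusted p = 4.63e-07 in the authors' deposited table). Kdm4c, with the same substrates, fell from 87.0 to 26.9 (-1.86, adjusted p = 1.59e-16 in the authors' deposited table). The sum of the 4 Kdm4 genes was 143 RPKM in ESC and 165 in NPC, of which Kdm4a made up 31.0% and 70.7% and Kdm4c 60.9% and 16.3%. Kdm4b rose too, from 11.4 to 21.1 RPKM, while its introns, 1.38 and 1.28 RPKM in ESC and 0.688 and 1.07 in NPC, lay lower and did not pass (limma adjusted p = 0.172). Kdm4d, a testis enzyme, was low in both (0.129 and 0.352 RPKM).

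Kdm4a introns were at 1.26 and 1.22 RPKM in ESC and at 2.09 and 3.73 in NPC (limma difference 0.77, SE 0.230, adjusted p = 0.017). Kdm4c introns were at 2.90 and 3.25 RPKM in ESC and at 1.44 and 1.54 in NPC (-0.71, SE 0.206, adjusted p = 0.0149 in limma). Neither gene's groups overlap, and within each column the ratio of Kdm4a over Kdm4c was 0.435 and 0.375 in ESC and 1.45 and 2.42 in NPC. Kdm4c was not called with the columns scaled, and with the receptor median subtracted from each column neither was called (adjusted p = 0.348 for Kdm4a). Without a filter neither was called (limma adjusted p = 0.166 for Kdm4a and 0.0753 for Kdm4c), and without the variance trend Kdm4a was not (adjusted p = 0.0824).

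Kdm7a, which removes repressive methylation from H3K9 and H3K27 and is known from neural differentiation, rose from 10.2 to 30.6 RPKM. Its introns were at 0.715 and 0.657 RPKM in ESC and at 1.82 and 2.57 in NPC (limma difference 0.91, SE 0.189, adjusted p = 0.00232). Kdm7a reached the mean of 1 RPKM needed for the test only through NPC, and without that filter it was not called (limma adjusted p = 0.0741). Kdm6b, the inducible H3K27 demethylase, rose from 3.56 to 7.80 RPKM, while Kdm6a, its broadly expressed X-linked paralog, fell from 72.7 to 41.4. Kdm6a stayed the larger part of the pair, 95.3% in ESC and 84.1% in NPC. Kdm6b introns were at 1.83 and 1.58 RPKM in ESC and at 2.94 and 9.27 in NPC (limma difference 1.24, SE 0.389, adjusted p = 0.0216). The NPC replicates of Kdm6b differed more from each other than the lower one differed from ESC. With the receptor median subtracted, Kdm7a (adjusted p = 0.165) and Kdm6b (adjusted p = 0.125) were not called.

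Among the H3K4 demethylases, Kdm5b, the most abundant member in ESC, fell from 233 to 72.3 RPKM (-1.83, adjusted p = 2.12e-15 in the authors' deposited table), and Kdm5c from 151 to 89.6, while Kdm5a was not called (40.3 and 41.7). The Kdm5 sum was 424 RPKM in ESC and 204 in NPC. Kdm5b introns were at 10.8 and 11.2 RPKM in ESC and at 3.34 and 6.06 in NPC, without overlap, and did not pass (limma difference -1.12, SE 0.495, adjusted p = 0.0826; 0.0401 without the variance trend). Kdm1a (LSD1), the flavin enzyme of the CoREST complex, fell from 182 to 108 RPKM on exons. Its introns, at 6.56 and 6.54 RPKM in ESC and 3.66 and 8.10 in NPC, overlapped (limma adjusted p = 0.724). Kdm1b was not called (13.7 and 15.7). Kdm2b, which brings a Polycomb complex to CpG islands, fell from 37.8 to 17.2 RPKM, and Kdm2a from 61.8 to 43.6. Kdm2b introns were at 2.87 and 2.62 RPKM in ESC and at 0.935 and 0.973 in NPC (limma adjusted p = 0.00174), with NPC replicate 1 close to the receptor level. Kdm8 (5.07 and 1.13 RPKM) and Kdm3a (103 and 69.1) fell as well, and Kdm3b (36.3 and 44.2) was not called.

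**Figure D3:**
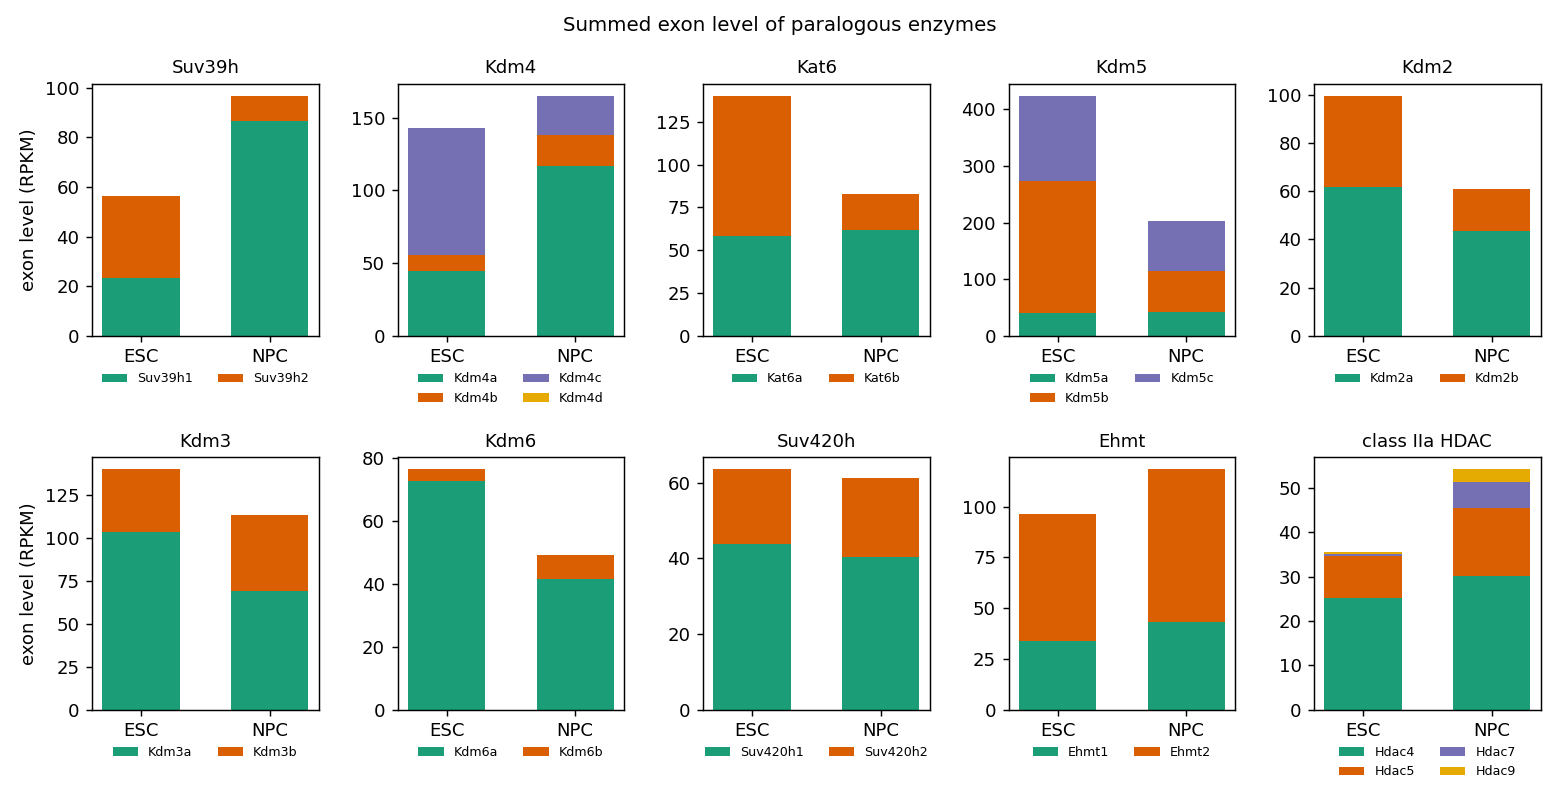
Exon level (RPKM, pooled by the authors, so without error bars) of paralogous enzymes stacked for ESC and NPC, with a vertical axis of its own in each panel that starts at 0. The sums of Kdm4 (143 and 165) and Suv420h (63.5 and 61.3) are similar in both cell types; Suv39h1, Kdm4a and Kat6a make up a larger part of their family in NPC, while the Ehmt and Suv420h splits are alike.

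None of the 7 acetyltransferases rose and 4 fell in the authors' deposited table, beside 32.3% and 33.9% of all genes. Kat6b (MORF), which acetylates H3 and is mutated in syndromes of brain development, fell most, from 82.1 to 20.9 RPKM, while its paralog Kat6a (MOZ) was not called (58.2 and 62.0). Kat6b thus went from 58.5% of the pair to 25.2%. Kat6b introns were at 6.26 and 6.43 RPKM in ESC and at 1.96 and 3.03 in NPC (limma difference -1.09, SE 0.331, adjusted p = 0.0185). Kat2a (GCN5, 33.1 and 11.9) and Kat2b (PCAF, 35.4 and 14.6), the alternative catalytic subunits of SAGA, fell side by side, and their split was 48.3% Kat2a in ESC and 44.8% in NPC. Kat2b introns passed (2.23 and 2.47 RPKM in ESC, 1.12 and 1.29 in NPC, limma adjusted p = 0.0205), though not with the columns scaled. Kat2a introns, at 2.94 and 2.86 and at 1.61 and 1.97 RPKM, did not (adjusted p = 0.0796). Kat7 (HBO1), which serves replication origins, fell from 65.7 to 32.9 RPKM. Kat5 (TIP60, 42.9 and 37.7) and Kat8 (MOF, 28.4 and 25.5) were not called on exons. Kat8 was the only member that passed on introns and not on exons where both were tested, at 3.24 and 3.31 RPKM in ESC and 1.27 and 1.97 in NPC (limma adjusted p = 0.0216), and its call was lost with the columns scaled.

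Among the deacetylases, Hdac11, the single class IV enzyme and known from brain and oligodendrocytes, rose from 1.16 to 22.1 RPKM, the largest rise of any member (log2 fold change 4.07, adjusted p = 4.74e-27 in the authors' deposited table). Its introns were at 0.237 and 0.240 RPKM in ESC, or 21 and 24 reads, and at 1.86 and 2.56 in NPC, or 166 and 204 reads (limma difference 1.37, SE 0.185, adjusted p = 0.000161). Hdac11 reached the mean of 1 RPKM needed for the test only through NPC (limma adjusted p = 0.0473 without that filter). The NPC replicates of Hdac11 lay far above ESC and above the receptor level, and its call held in each of the 12 alternatives run for it (it falls below a mean of 2 RPKM). The class IIa enzymes Hdac9 (0.276 and 2.90) and Hdac7 (0.638 and 5.83) rose from very low levels, with log2 fold changes of 3.17 and 3.06 in the authors' deposited table. Hdac4 (25.3 and 30.3) and Hdac5 (9.30 and 15.2), the more abundant enzymes of that class, were not called. Introns of Hdac7 were at 0.157 and 0.117 RPKM in ESC and 0.864 and 1.67 in NPC. Those of Hdac9 were at 0.0994 and 0.0666 RPKM in ESC and 1.13 and 0.288 in NPC, where the higher value is that of replicate 1. Both genes were below the mean of 1 RPKM needed for the intron test.

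Of the 4 class I enzymes, 1 rose and 1 fell on exons, beside 32.3% and 33.9% of all genes. Hdac1 and Hdac2 are the deacetylases of the Sin3, NuRD and CoREST repressor complexes, and Hdac3 is that of NCoR and SMRT. Hdac2 (147 and 171 RPKM) and Hdac3 (58.4 and 75.9) were not called on exons or introns. Hdac1 fell from 10.6 to 4.67 RPKM, so that Hdac2 made up 93.3% of the pair in ESC and 97.3% in NPC. Hdac1 introns, at 2.34 and 2.37 RPKM in ESC and 1.03 and 2.21 in NPC, did not pass (limma adjusted p = 0.187), and with the columns scaled the difference was 0.00. Reads shared with near-identical copies could move the level of Hdac1, since the treatment of shared reads was not given in the sources used here. X-linked Hdac8 rose from 10.3 to 19.5 RPKM, and its introns, at 0.714 and 0.782 and at 1.59 and 1.24 RPKM, came close to the threshold (limma adjusted p = 0.0505). Class IIb parted: Hdac6, the tubulin deacetylase, fell from 68.5 to 29.4 RPKM, and Hdac10, a polyamine deacetylase, rose from 2.32 to 5.77. Hdac6 introns were at 5.97 and 6.31 RPKM in ESC and at 1.67 and 2.95 in NPC (limma adjusted p = 0.0142). Hdac10 introns rest on 13 to 30 reads and did not pass (1.34, 0.673, 1.45 and 1.95 RPKM, adjusted p = 0.102).

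Sirt1 and Sirt2 moved in opposite directions. Sirt1, a nuclear deacetylase abundant in ESC, fell from 177 to 31.1 RPKM (-2.68, adjusted p = 3.38e-33 in the authors' deposited table). Sirt2, a cytoplasmic deacetylase of glia that acts on tubulin and on H4, rose from 9.65 to 55.7 RPKM (2.42, adjusted p = 3.38e-14 in the authors' deposited table). Sirt1 introns were at 19.5 and 23.5 RPKM in ESC and at 3.43 and 6.67 in NPC (limma difference -1.94, SE 0.608, adjusted p = 0.021). Sirt2 introns were at 1.57 and 1.73 RPKM in ESC and at 4.79 and 12.9 in NPC (limma difference 1.76, SE 0.406, adjusted p = 0.00438). Neither gene's groups overlap, and the ratio of Sirt2 over Sirt1 within a column was 0.0807 and 0.0737 in ESC and 1.40 and 1.94 in NPC. Sirt4, of the mitochondria, rose from 3.52 to 9.12 RPKM on exons (introns 1.87 and 2.48 in ESC, 2.05 and 4.73 in NPC, limma adjusted p = 0.291). Sirt3, Sirt5, Sirt6 and Sirt7 were not called and lay between 2.50 and 9.40 RPKM in both cell types.

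**Figure D4:**
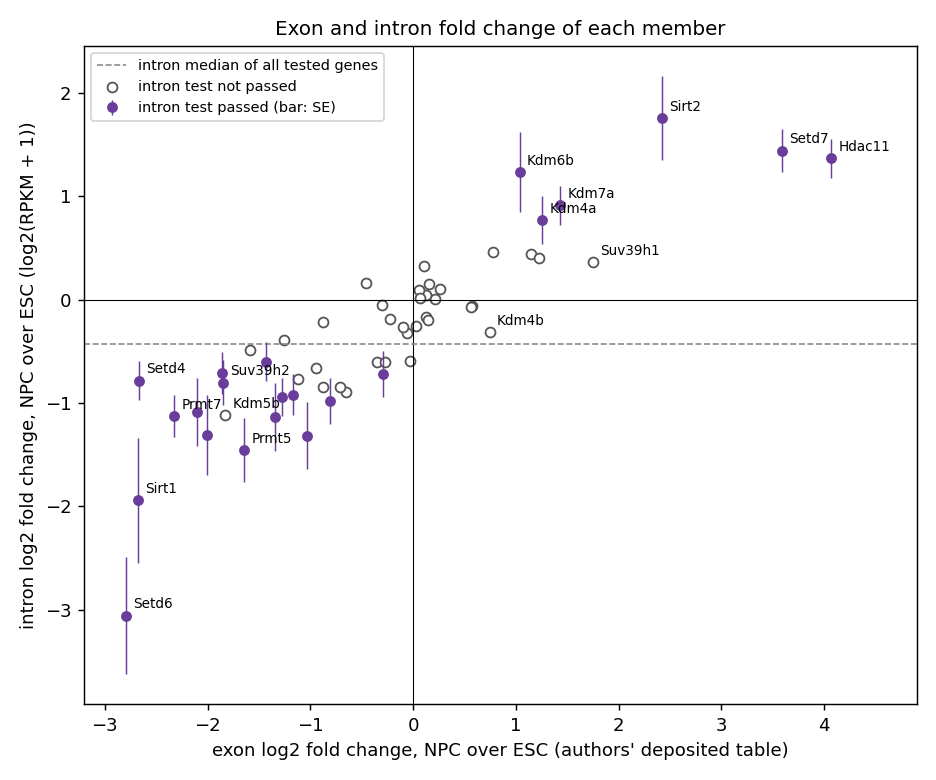
Exon log2 fold change of each member in the authors' deposited table (horizontal axis) and its intron difference on the log2(RPKM + 1) scale from limma (vertical axis, NPC minus ESC). Filled points passed the intron test, with SE bars; the dashed line is the intron median of all tested genes (-0.43). Setd6 and Sirt1 are at the lower left and Setd7, Hdac11 and Sirt2 at the upper right, while Suv39h1 and Kdm4b, higher on exons, are open.

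Of the 5 X-linked members, Hdac6, Kdm6a and Kdm5c fell and Suv39h1 and Hdac8 rose on exons, beside 33.9% lower and 32.3% higher among all genes. The shares among all X-linked genes are not given. The 22 members not called on exons had log2 fold changes between -0.46 and 0.95 in the authors' deposited table, the highest being Sirt5 (2.50 and 5.81 RPKM, adjusted p = 0.191).

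Other histone modifying enzymes and the subunits that hold these enzymes in complexes were read from lists of symbols. Of 116 tested in the authors' deposited table, 22 rose and 43 fell, beside 32.3% and 33.9% of all genes, with a median log2 fold change of -0.33. Among 11 COMPASS subunits, which serve the H3K4 methyltransferases, none rose and 6 fell, and on introns 6 of 12 fell and none rose in limma (34.0% and 13.2% of all genes). Wdr5, the scaffold of COMPASS, was at 193 and 32.9 RPKM, Ash2l at 348 and 83.6 and Dpy30 at 206 and 51.3. Wdr5 introns were at 15.6 and 15.7 RPKM in ESC and at 1.48 and 2.11 in NPC, so the NPC replicates were far below ESC. Of 33 subunits of Hdac corepressor complexes 8 rose and 9 fell, with Rcor3 (1.56 and 9.17), Chd3 (5.21 and 29.2) and Mbd2 (10.6 and 38.9) leading the risers. Mta3 (44.4 and 9.19), the neuronal gene repressor Rest (317 and 71.7) and Gatad2a (104.9 and 29.8) led those that fell.

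Of 39 subunits of acetyltransferase complexes (SAGA, ATAC, NuA4 and those of Kat8 and its relatives) 6 rose and 15 fell. All counts of this paragraph stand beside 32.3% higher and 33.9% lower among all genes. Tada1, a SAGA adaptor, was at 3.31 and 27.7 RPKM, and Msl1 (14.5 and 66.2) and Msl3 (14.7 and 51.7) belong to the male-specific lethal complex of Kat8. Ing5, a partner of Kat6 and Kat7, fell from 98.6 to 8.32, Actl6a from 215 to 40.7 and Taf5l from 69.7 to 15.4. Of 11 other acetyltransferases 1 rose, Naa60 (10.1 and 19.8 RPKM), and 4 fell. Hat1, which acetylates newly made H4, was at 380 and 57.4, Ncoa3 at 103.6 and 20.8 and Elp3 at 159 and 112. Of 15 other lysine methyltransferases 5 rose and 5 fell. Kmt2e (6.82 and 38.4), Prdm9 (1.09 and 5.18) and Ash1l (15.0 and 53.5) rose most, and Smyd3 (25.4 and 8.95), Smyd5 (34.9 and 12.6) and Dot1l (12.1 and 5.35) fell most. Among 7 further JmjC enzymes and Carm1 together, Phf2 (4.28 and 25.9) and Jmjd1c (87.4 and 153) rose, and Mina (38.7 and 9.62), Hr (3.45 and 0.980) and Carm1 (38.2 and 18.0) fell most.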

How the data were processed

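The authors deposited 2 tables, made from 50 bp single-end reads per the series' design text. The submitters' processing notes name DESeq2 1.10.0 and mm9. Aligner, counter, annotation and strand use (not given in the sources used here) could shift levels of overlapping or duplicated genes. The exon table gives RPKM pooled per cell type by the authors, with their log2 fold change and adjusted p-value, read here as deposited. Whether that test treated technical libraries as replicates was not given in the sources used here, which bears on its p-values. The deposited intron values name no unit; they were whole reads per intron length and column denominator (within 0.001 reads), hence RPKM. Whole reads came from a single intron length in 56 members and from the largest fitting one in 9. Intron log2(RPKM + 1) was tested with limma 3.58.1 (R 4.3.3, trended variance, mean of at least 1 RPKM, Benjamini-Hochberg), 2 against 2 replicates. The labels do not say whether replicates were separate cultures. Alternatives were other pseudocounts, filters, limma without the variance trend, column scalings, subtracted background, a replicate block and leaving out each replicate. Members, lists and classes were chosen with earlier results of these data known. Intron values were named for members called on introns and the 2 largest exon changes per class and direction, besides others described by class after their values were seen. From each other list the 3 largest changes per direction were named. Coordinates of the files are mm9 and were not mixed with the GRCm38 reference. Genes were matched to the promoter table by gene ID or symbol (57 of 66).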

Additional observations from a re-analysis of the deposited data

How the results depend on the processing

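Requiring a mean of 10 RPKM left 8 of 49 members higher on exons in place of 13 of 61, while the other exon counts stayed within 1.5 times. On introns, 23 members (6 higher, 17 lower) were called by limma; other pseudocounts and subtraction of the silent genes' median left these counts as they were. Without a filter 3 were called (1 higher, 2 lower), and with a mean of at least 2 RPKM 3 were higher. Without the variance trend 19 were called (4 higher, 15 lower): Kdm4a (adjusted p = 0.0824), Kdm6b (0.101), Kat2b (0.0691), Kat8 (0.0628) and Setdb2 (0.0682) were lost and Kdm5b (0.0401) was gained. With columns scaled to a common median 14 were higher. With the receptor genes' median subtracted, chosen after seeing the data, 12 were called (3 higher, 9 lower). Leaving out each replicate in turn gave 4 to 47 calls, 2 to 15 higher and 2 to 40 lower. Without ESC replicate 1 there were 4 calls and without ESC replicate 2 there were 5, with Hdac11 and Setd7 the higher ones in both. Those fits take the spread from NPC alone and assume that the lone ESC sample varies alike; the cause of other changes was not tested. The fits without NPC replicate 1 or without NPC replicate 2 take the spread from ESC alone, so they leave out the difference between the NPC replicates. Except for the scaled columns, the share of all genes called under these intron alternatives is not given. The swing of the counts is therefore not a result about the members. With the columns scaled, the differences of Hdac1 (0.0031) and Kdm1a (0.18) turned positive. Leaving out replicates gave ranges of -0.70 to 0.27 for Kdm1a, -0.054 to 0.86 for Sirt4 and -0.032 to 0.76 for Suv39h1, with the extremes reached without either NPC replicate. With the replicate block 22 members were called, 6 higher and 16 lower, Sirt1 being lost (adjusted p = 0.0656). Same-numbered replicates did not deviate together (correlation over genes 0.019), so the numbers were not used as pairs.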
